A study of Mus musculus with 28 samples.

Results

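The genes described here are 9 mouse genes linked to neurodegenerative disease: App, Aplp1 and Aplp2 of the amyloid precursor family, the prion protein gene Prnp, the huntingtin gene Htt, the synuclein gene Sncb, the superoxide dismutase gene Sod1, and the parkinsonism genes Park7 and Pink1. They were taken by name from the 23995 genes listed in each file, and all 9 are listed. Ribosome-bound mRNA was purified by axon-TRAP from mice that carry the RiboTag knock-in allele, in which Cre recombination adds an HA tag to the ribosomal protein Rpl22. The Cre was Pax6-alpha-Cre, which is active in peripheral retinal progenitors and so also tags ribosomes of retinal neurons other than retinal ganglion cells (RGCs), but in the superior colliculus (SC), where RGC axons end, the axons are the tagged structures according to the study's methods. The groups were the SC of Cre-positive mice, the SC of Cre-negative littermates, which carry the RiboTag allele without recombination and give the background of the immunoprecipitation, and the eyes of Cre-positive mice, which the labels call retina. All mice were C57BL/6, tissue was pooled from several animals per library, and each source was sampled with 2 replicates in adults and at E17.5, P0.5 and P7.5, giving 12 groups and 24 libraries. A further 4 libraries, each unreplicated, came from the adult Cre-positive SC and adult retina with and without ribosome run-off, a treatment in which ribosomes already elongating run to the stop codon and release the mRNA, while new initiation is blocked.

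The amyloid precursor protein is a membrane protein that is carried rapidly down RGC axons and is cut by secretases to release the amyloid-beta peptide, and its paralogs Aplp1 and Aplp2 are cut in the same way but do not contain that peptide. Prion protein is a surface glycoprotein of neurons, huntingtin is a large scaffold for vesicle transport whose expanded glutamine tract causes Huntington's disease, and beta-synuclein, the product of Sncb, is a presynaptic protein. Sod1 detoxifies superoxide and is mutated in familial amyotrophic lateral sclerosis (ALS), Park7 (DJ-1) protects against oxidative stress, and Pink1 is a kinase that marks damaged mitochondria for removal. Whether the mRNAs of such genes sit on ribosomes in the axon, far from the cell body, is what these libraries bear on.

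At P0.5, the stage whose 2 replicates were most alike in the SC, 5 of the 9 mRNAs were higher in both Cre-positive SC libraries than in both Cre-negative ones: Prnp, Pink1, Aplp1, Sod1 and, at a much lower level, Htt. Of these, Prnp and Htt passed the test across all genes, in which 28.1% of the genes tested were called higher. The median gene was also 0.78 higher with Cre on the log2(FPKM + 1) scale. How many of all genes separated in this way was not counted, so 5 of 9 is not read as particular to these genes. App went the other way at this stage, with its highest value in a Cre-negative library, and Aplp2, Sncb and Park7 were low or listed at 0 in the axon at P0.5. The plot of levels by library gives every value.

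**Figure D1:**
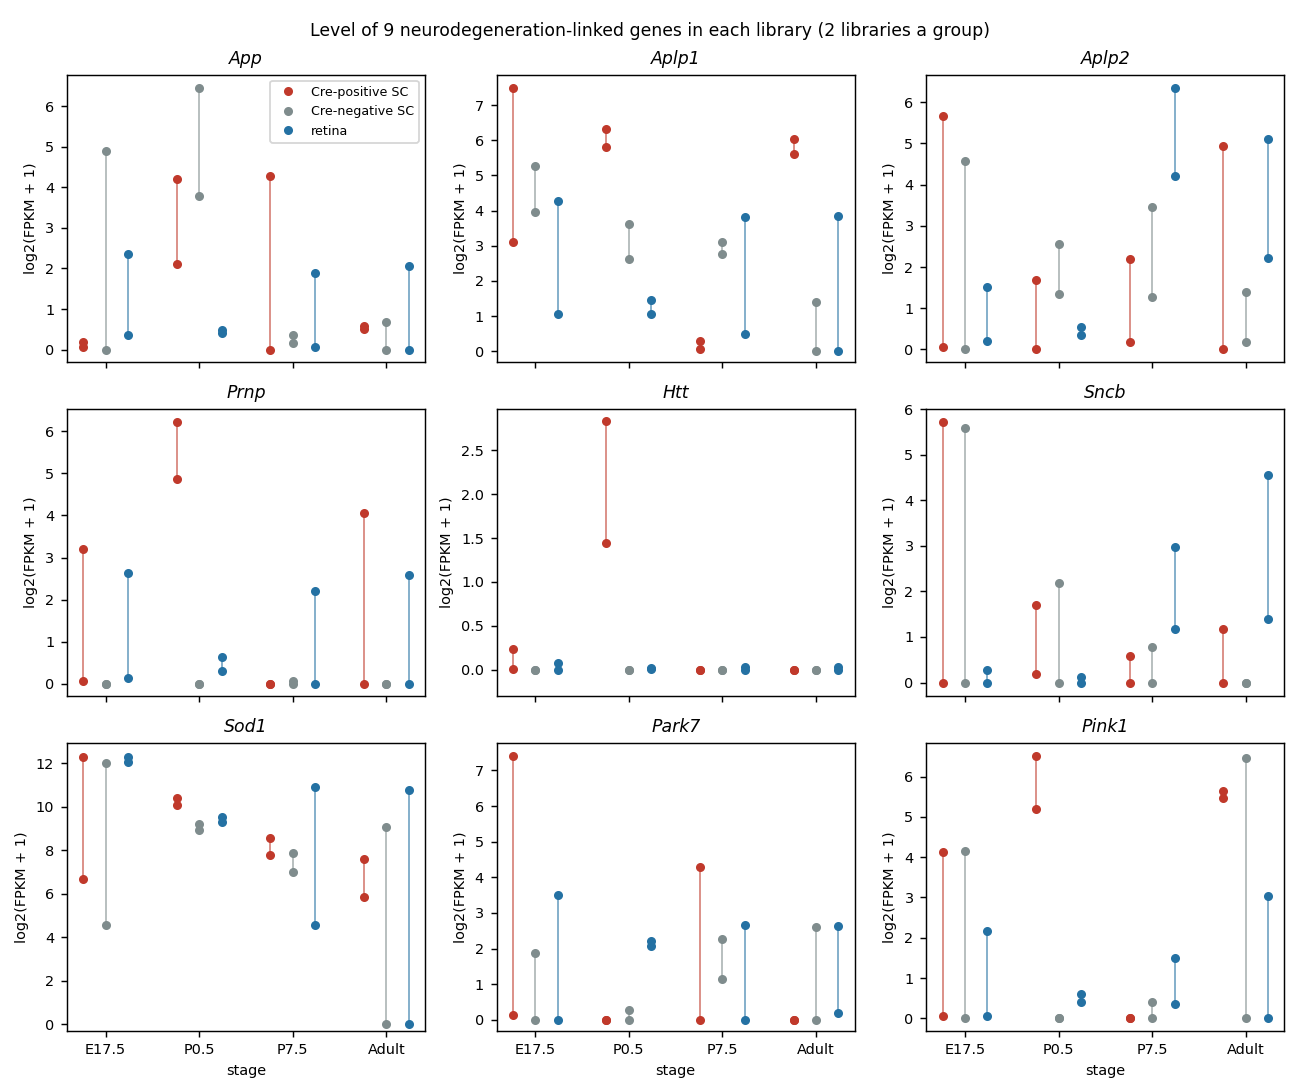
Level of each gene as log2(FPKM + 1), on the vertical axis, in every library, with stage on the horizontal axis and Cre-positive SC in red, Cre-negative SC in grey and retina in blue; each point is 1 library and the line joins the 2 replicates of a group. Prnp and Htt stand highest in the 2 Cre-positive SC libraries of P0.5, Sod1 is high in most libraries, and many groups at the other stages span most of the axis.

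How far the 2 replicates of a group agreed set what could be read at each stage. In the Cre-positive SC, 6 of the 9 genes reached 10 FPKM in at least 1 library of E17.5, and 4 of these 6 were under 1 FPKM in the other library. The corresponding numbers were 2 of 5 in the adult, 2 of 3 at P7.5 and 0 of 5 at P0.5. The same share over all genes in the Cre-positive SC was 0.994% at P0.5 and 53.7%, 35.0% and 49.4% at E17.5, P7.5 and adulthood, respectively. At E17.5 several members sorted by replicate number rather than by Cre: Sod1 stood at 5075 FPKM in Cre-positive and 4075 in Cre-negative replicate 1 against 102 and 22.3 FPKM in the replicates 2, and Sncb at 51.8 and 47.3 FPKM against 0 and 0. Libraries also differed in how many genes they held, from 1162 genes above 0 in the adult Cre-negative replicate 2 to 8769 in a retina library of E17.5. An exact 0 was therefore not read as absence, because only 4 to 11 of the 11 measured genes of a list that every cell uses were above 0 in a library. Since the files give FPKM without read totals, the depth behind each value is unknown.

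**Figure D2:**
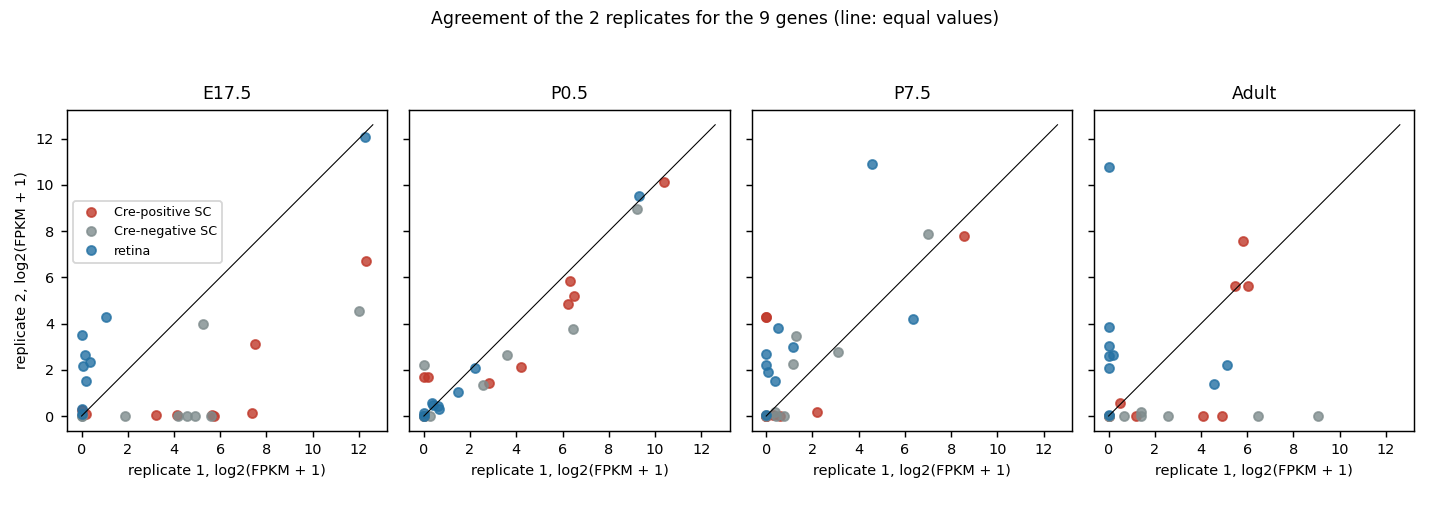
Values of the 9 genes in replicate 1 (horizontal) and replicate 2 (vertical), both as log2(FPKM + 1), with 1 panel per stage, 1 point per gene and source, and a line at equal values. Points lie near the line at P0.5, whereas at E17.5 and in the adult many lie on an axis, being well above 0 in 1 library and at or near 0 in the other.

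Markers of the labelled tissues gave the following. In retina, 3 to 11 of 12 RGC markers were above 0, and lens and photoreceptor markers were present as well, with the lens gene Cryaa above 0 in 8 of 8 libraries. In the Cre-positive SC, 1 to 8 of the 12 RGC markers were above 0, and in the Cre-negative SC 0 to 6. The summed RGC markers at P0.5 were 512 and 245 FPKM with Cre and 940 and 330 FPKM without, so the sum was not higher with Cre. In the Cre-positive SC, Rbpms was listed at 0 in 8 of 8 libraries and Thy1 in 7 of 8. Cryaa was above 0 in 6 of 8 Cre-positive and 7 of 8 Cre-negative SC libraries, and the myelin gene Mbp in 3 of 8 of each. At P0.5 the Cre-positive SC libraries had 4620 and 4923 genes above 0 and the Cre-negative ones 2162 and 2546, so far more genes were detected with Cre, and the median gene among the 5983 tested stood 0.78 higher on the log2(FPKM + 1) scale. Also at P0.5, 1 of 6 tested RGC markers (Slc17a6), 1 of 6 astrocyte markers (Aldh1l1), 1 of 5 oligodendrocyte markers (Sox10), 1 of 2 markers of amacrine, horizontal, bipolar and Mueller cells (Slc6a9) and 1 of 9 genes that every cell uses (Rpl4) passed the test as higher with Cre, and 1 of 3 microglia markers (C1qa) as lower. The summed astrocyte markers were 67.3 and 58.2 FPKM with Cre against 15.9 and 38.3 FPKM without, and the summed oligodendrocyte markers 101 and 91.2 against 86.2 and 48.1 FPKM. The part of these differences in the results below was not tested. In such bulk samples, fewer contributing axons and less RNA per axon cannot be told apart.

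Setting Cre-positive against Cre-negative SC asks which mRNAs were recovered because of the tag. The test was limma on log2(FPKM + 1) within a fit of all 16 SC libraries. P-values were adjusted over the 5983 genes with 1 FPKM or more in 2 or more of these libraries, and all 9 genes were among them. At P0.5, 2 of the 9 genes passed as higher with Cre and 0 as lower. Without adjustment, 3 and 0 had a limma p under 0.05, against 2034 and 309 of the 5983 genes. The background is large at this stage: 28.1% of all genes tested were called higher and 4.35% lower, so the members' share is near the background. The median of the 9 differences was 1.17, against 0.78 over all genes.

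Prnp (ENSMUSG00000079037; chromosome 2, 131909928 to 131938429 of mm10, plus strand, 3 exons) was at 73.8 and 28.1 FPKM in the Cre-positive SC at P0.5 and listed at 0 in both Cre-negative libraries. The groups did not overlap, and the difference was 5.55 on the log2(FPKM + 1) scale (SE 1.28, limma adjusted p = 0.00673). Without Cre-positive replicate 1, the higher of the pair, it was 4.87 with an adjusted p of 0.0716. Prnp was the gene with the cleanest Cre-negative background of the set after Htt. It was above 0 in 1 of 8 Cre-negative libraries, at 0.0468 FPKM, and in 5 of 8 Cre-positive ones. At 1 FPKM or more it stood in 4 of 8 Cre-positive and 0 of 8 Cre-negative libraries, so it entered the SC tests only through Cre-positive ones. Over the mean of the 4 stages it was 2.29 higher with Cre (SE 0.64, adjusted p = 0.0419), the 1 member of 9 called in that comparison, where 10.1% of all genes were called higher and 2.24% lower. That call was lost in 16 of 20 alternative fits, in which its adjusted p ranged up to 0.0988. The annotation places 145 bases of Prnp exon in common with Prn on the same strand, which is listed separately in the files, so reads there could have been split.

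Htt (ENSMUSG00000029104; chromosome 5, 34761740 to 34912534, plus strand, 67 exons) was at 6.10 and 1.72 FPKM in the Cre-positive SC at P0.5. It was listed at 0 in all 8 Cre-negative SC libraries, including both at P0.5, and its highest value in any other SC library was 0.182 FPKM, at E17.5 with Cre. The difference at P0.5 was 2.14 (SE 0.38, limma adjusted p = 0.00123). Htt met the entry filter only through the 2 Cre-positive libraries of P0.5, so the filter favoured the group in which it was called. This holds for every Htt call below. Without the filter the limma adjusted p at P0.5 was 0.00321. The shared fit includes groups in which Htt is listed at 0 in both libraries, and these add no spread to its SE. In a fit to the 4 libraries of P0.5 alone, the SE was 0.59 and the limma adjusted p was 0.0505. Htt is the lowest of the 9 mRNAs in FPKM at its peak. Its transcript of 13215 bases is by far the longest, so a given FPKM rests on more fragments than for the other genes. Where priming favours 3' ends, dividing by the full length can place such a gene lower.

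Pink1 (ENSMUSG00000028756; chromosome 4, 138313409 to 138326307, minus strand, 9 exons) had the largest difference of the 9 at P0.5 and narrowly missed the threshold. It was at 89.6 and 35.9 FPKM with Cre and listed at 0 in both libraries without. The difference was 5.85 (SE 2.06, adjusted p = 0.0520). The wide SE comes from the other stages, which share the fit: in the fit to the P0.5 libraries alone, the adjusted p was 0.00497. In the adult, Pink1 was at 42.9 and 49.1 FPKM with Cre and at 86.9 and 0 FPKM without, so the Cre-negative values lay on both sides of the Cre-positive ones. The adult difference of 2.32 (SE 2.06, adjusted p = 1) turned to −0.91 without the Cre-negative replicate 2, the library with the fewest genes.

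Aplp1 (ENSMUSG00000006651; chromosome 7, 30434982 to 30445535, minus strand, 17 exons) was higher with Cre at P0.5 and in the adult by groups that did not overlap, though neither difference passed the test. At P0.5 it was at 78.8 and 55.5 FPKM with Cre and at 11.2 and 5.21 FPKM without, or 67.2 ± 16.5 against 8.21 ± 4.25 FPKM (SD, n = 2 each). That difference of 2.95 (SE 1.33) had an adjusted p of 0.128, and of 0.0206 in the fit to the P0.5 libraries alone. In the adult it was at 64.8 and 47.9 FPKM with Cre and at 1.62 and 0 FPKM without, a difference of 5.13 (SE 1.33, unadjusted p = 0.00294, adjusted p = 0.521). At P7.5 the order was the opposite, at 0.237 and 0.0415 FPKM with Cre and 7.56 and 5.74 FPKM without, a difference of −2.74 (SE 1.33, adjusted p = 1). At E17.5 the groups overlapped, at 180 and 7.64 FPKM with Cre and 37.6 and 14.6 FPKM without.

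App (ENSMUSG00000022892; chromosome 16, 84949685 to 85173766, minus strand, up to 18 exons) was at 17.4 and 3.33 FPKM with Cre and at 86.6 and 12.7 FPKM without Cre at P0.5, so the groups overlapped with the higher values in the background. The difference was −1.96 (SE 1.74, adjusted p = 0.548). At E17.5 it was at 0.132 and 0.0522 FPKM with Cre and 28.9 and 0 FPKM without, and at P7.5 at 0 and 18.3 FPKM with Cre and 0.290 and 0.127 FPKM without. In the adult no SC library exceeded 0.606 FPKM. An antisense gene, Gm49227, overlaps 113 bases of App exon, and for an oligo-dT amplification without stated strand their reads cannot be told apart.

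Aplp2 (ENSMUSG00000031996; chromosome 9, 31149557 to 31211815, minus strand) was at 0 and 2.201 FPKM with Cre at P0.5 and at 4.91 and 1.55 FPKM without. Sncb (ENSMUSG00000034891; chromosome 13, 54758860 to 54766595, minus strand) was at 0.143 and 2.25 FPKM with Cre and 0 and 3.57 FPKM without. Park7 (ENSMUSG00000028964; chromosome 4, 150897133 to 150914437, minus strand) was listed at 0 in both Cre-positive libraries of P0.5 and at 0.204 and 0 FPKM without Cre. None of these 3 genes showed a Cre-dependent difference at P0.5, with differences of −1.12 (SE 2.19), −0.15 (SE 1.95) and −0.13 (SE 2.07). Away from P0.5 each had 1 or 2 isolated high values in the Cre-positive SC, which were 49.4 FPKM at E17.5 and 29.4 FPKM in the adult for Aplp2, 51.8 FPKM at E17.5 for Sncb, and 167 FPKM at E17.5 and 18.6 FPKM at P7.5 for Park7. The partner library was at 0.108 FPKM or below in each of these cases.

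Sod1 (ENSMUSG00000022982; chromosome 16, 90220754 to 90226329, plus strand, 5 exons) was the most abundant of the 9 mRNAs per length, with a median of 296 FPKM over the 8 Cre-positive SC libraries, 362 FPKM over the Cre-negative ones and 1234 FPKM over retina. At P0.5 it was at 1355 and 1099 FPKM with Cre and at 599 and 492 FPKM without. These groups did not overlap, the mRNA was also abundant in the untagged background, and the difference of 1.17 (SE 2.95, adjusted p = 1) lay near the median of all genes, 0.78. Sod1 was at 56.1 FPKM or more in all 8 Cre-positive SC libraries and was listed at 0 in the adult Cre-negative replicate 2 and in the adult retina replicate 1.

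At the other stages no member passed the Cre comparison. By limma the counts in either direction were 0 of 9 in the adult, 0 of 9 at P7.5 and 0 of 9 at E17.5. Without adjustment Aplp1 in the adult was the only member under 0.05, where 87 of the 5983 genes were higher and 97 lower. Few genes of any kind were called at these stages: 0.0836% higher and 0.0669% lower in the adult, 0% in either direction at P7.5, and 0.468% higher and 1.10% lower at E17.5. The plot of Cre differences by stage shows the same 9 genes under each.

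**Figure D3:**
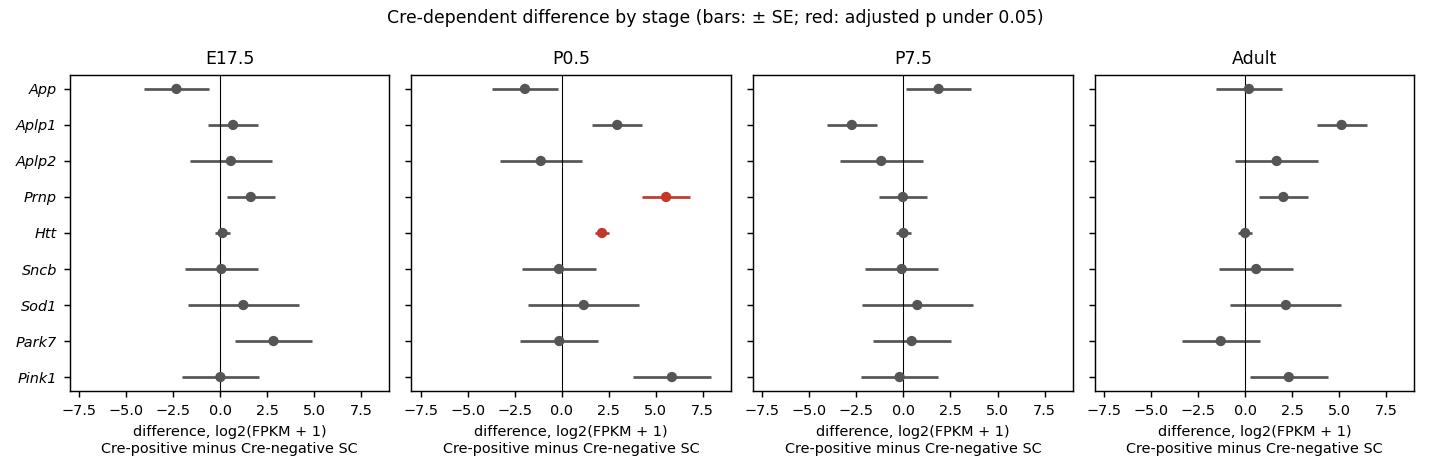
Difference between Cre-positive and Cre-negative SC on the log2(FPKM + 1) scale (horizontal) for each gene (vertical), 1 panel per stage; points are limma estimates from 2 libraries a group, bars are ± SE, and red marks an adjusted p under 0.05. Prnp at 5.55 and Htt at 2.14 are the red points, both at P0.5, while Pink1 at 5.85 lies farther right in the same panel with a wider bar.

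The comparison of consecutive stages within the Cre-positive SC asks how the axonal mRNAs changed from axon growth (E17.5) through branching (P0.5) and refinement (P7.5) to the mature projection. From E17.5 to P0.5, 2 of 9 genes rose and 0 fell, where 25.1% of all genes rose and 1.81% fell (median difference 0.77 for the 9 and 0.69 for all genes). Htt rose by 2.01 (SE 0.38, adjusted p = 0.00209) from 0.00993 and 0.182 FPKM, and in a fit to only the libraries compared its adjusted p was 0.169. Prnp rose by 3.91 (SE 1.28, adjusted p = 0.0449) from 8.24 and 0.0384 FPKM, a call lost in 6 of 9 alternative fits, with an adjusted p of up to 0.276, including those without Cre-positive E17.5 replicate 2 (0.264) or either P0.5 replicate (0.276 and 0.0850). The 167 FPKM of Park7 in a single E17.5 library made its fall of 7.39 pass when the other E17.5 library was left out (adjusted p = 0.00963), and not otherwise (−3.77, SE 2.07, adjusted p = 0.237).

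From P0.5 to P7.5, 3 of 9 genes fell and 0 rose, where 29.2% of all genes fell and 0.501% rose (median difference −2.09 for the 9 and −1.19 for all genes). Prnp and Htt went from their highest group to listed at 0 in both libraries, and Aplp1 from 78.8 and 55.5 FPKM to 0.237 and 0.0415 FPKM. The differences were −5.89 for Aplp1 (SE 1.33, adjusted p = 0.00631), −5.55 for Prnp (SE 1.28, adjusted p = 0.00730) and −2.14 for Htt (SE 0.38, adjusted p = 0.00135). For Prnp and Htt, size and SE are those of the Cre comparison at P0.5 with the sign turned. Both comparisons set the same P0.5 libraries against a group listed at 0, so they are not independent. Aplp1 was called in each of 9 alternative fits. The Prnp call was lost without P0.5 replicate 1 (adjusted p = 0.0786), and the Htt call in a fit to only the libraries compared (adjusted p = 0.0844). Pink1 went the same way, from 89.6 and 35.9 FPKM to 0 in both (−5.85, SE 2.06, adjusted p = 0.0551). Sod1 went from 1355 and 1099 FPKM to 374 and 218 FPKM (−2.09, SE 2.95, adjusted p = 0.757).

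From P7.5 to the adult, 0 of 9 genes were called in either direction by limma, where 0.0836% of all genes were called higher and 0% lower. At an unadjusted p under 0.05, 57 of the 5983 genes were higher and 71 lower, and 2 members were higher. These were Aplp1, at 64.8 and 47.9 FPKM in the adult (5.64, SE 1.33, adjusted p = 0.549), and Pink1, at 42.9 and 49.1 FPKM (5.55, SE 2.06, adjusted p = 1). For both genes the 2 adult libraries lay above both P7.5 libraries. Prnp was at 15.8 and 0 FPKM, and Htt remained listed at 0 in both adult libraries.

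Whether the Cre difference itself changed between stages was tested as an interaction. From E17.5 to P0.5 it grew for 1 of 9 genes, Htt (2.01, SE 0.54, adjusted p = 0.0170), where 23.9% of all genes were called higher and 3.23% lower. From P0.5 to P7.5 it shrank for 1 of 9, again Htt (−2.14, SE 0.54, adjusted p = 0.0152), where 2.74% were called higher and 18.7% lower. Prnp (−5.58, adjusted p = 0.0517) and Aplp1 (−5.69, adjusted p = 0.0553) missed the threshold in that comparison. From P7.5 to the adult, 0 of 9 genes and 0% of all genes were called by limma. At an unadjusted p under 0.05, 1 member, Aplp1, was higher, where 91 of the 5983 genes were higher and 43 lower.

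The comparison of Cre-positive SC with retina sets the axonal against the mainly somal ribosome-bound mRNA. The Cre-positive SC is called the axon here for short, though it also holds background of the immunoprecipitation. SC cDNA had more PCR rounds than retina cDNA, so source and amplification cannot be told apart, and their parts in the differences were not tested. At P0.5, 3 of 9 genes were higher in the axon and 0 lower, against 32.7% and 2.01% of the 6321 genes tested (median difference 2.12 for the 9 and 1.10 for all genes). Pink1 was at 0.512 and 0.333 FPKM in retina (difference 5.35, SE 1.43, adjusted p = 0.0125), Prnp at 0.556 and 0.226 FPKM (5.08, SE 1.58, adjusted p = 0.0267) and Htt at 0.0107 and 0.00705 FPKM (2.12, SE 0.39, adjusted p = 0.00118). In each case both axonal libraries lay above both retina libraries. Htt again entered the test only through the 2 axonal libraries of P0.5. The Htt call held in 9 of 9 alternative fits, whereas Prnp was lost in 7 of 9 and Pink1 in 4 of 9. Both were lost without Cre-positive replicate 1 (adjusted p = 0.172 for Prnp and 0.105 for Pink1), without retina replicate 1 (0.0947 and 0.0612) and without retina replicate 2 (0.121 and 0.0703), and Prnp also without Cre-positive replicate 2 (0.0636). Aplp1, at 1.77 and 1.07 FPKM in retina, was 4.81 higher in the axon (SE 1.78, adjusted p = 0.0560). Park7 was the 1 gene with the opposite order at P0.5, listed at 0 in both axonal libraries and at 3.66 and 3.20 FPKM in retina (−2.14, SE 2.16, adjusted p = 0.559). These comparisons share their Cre-positive libraries with the comparison against Cre-negative SC and are not independent of it.

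At the other stages 0 of 9 genes were called between axon and retina by limma. At an unadjusted p under 0.05, 2 were higher in the adult Cre-positive SC than in retina, Aplp1 and Pink1, and 0 were called at P7.5 or E17.5. In the adult, 133 of the 6321 genes were higher in the axon and 359 lower at that unadjusted threshold. Over all genes 0.0949% were called higher and 0% lower in the adult, 0.0158% and 0% at P7.5, and 0.570% and 0.744% at E17.5. Pink1 in the adult was at 42.9 and 49.1 FPKM in the Cre-positive SC and 0 and 7.24 FPKM in retina (4.03, SE 1.43, adjusted p = 0.439). The adult Cre-negative SC held Pink1 at 86.9 and 0 FPKM, so its adult level cannot be assigned to the axon. Aplp1 in the adult was at 0 and 13.3 FPKM in retina (3.91, SE 1.78, adjusted p = 0.640). Sncb had the opposite order in the adult, at 1.26 and 0 FPKM in the axon and 22.6 and 1.63 FPKM in retina (−2.39, SE 1.59, adjusted p = 0.752).

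Within retina, 8 of the 9 genes could be tested, since Htt did not exceed 0.0588 FPKM in any retina library. In each of the 3 consecutive comparisons limma called 0 of 8 in either direction, and over the 4080 genes tested 0% were called from E17.5 to P0.5, 0.0245% higher and 0.0490% lower from P0.5 to P7.5, and 0% from P7.5 to the adult. The only member at an unadjusted p under 0.05 was Aplp2. It went from 0.282 and 0.469 FPKM at P0.5 to 80.6 and 17.4 FPKM at P7.5 (4.82, SE 1.78, limma unadjusted p = 0.00681, adjusted p = 0.828). In that comparison 47 of the 4080 genes were higher and 52 lower without adjustment. Sod1 was at 4938 and 4239 FPKM in retina at E17.5 and at 639 and 729 FPKM at P0.5, groups that did not overlap, with a difference of −2.74 (SE 4.42, adjusted p = 1). Its later values differed widely between replicates, at 22.7 and 1896 FPKM at P7.5 and 0 and 1739 FPKM in the adult.

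When the 12 groups were ordered by mean FPKM for each gene, most neighbours overlapped in their replicates: 9 to 11 of the 11 neighbouring pairs did so for each of the 9 genes. The same count over all genes was not made, so neither overlap nor separation is read as particular to these genes. Prnp and Htt were headed by the Cre-positive SC of P0.5, whose libraries stood apart from the next group. For Pink1 that group also came first, at 62.7 ± 37.9 FPKM (SD, n = 2), but it overlapped the adult Cre-positive SC at 46.0 ± 4.36 FPKM. The adult Cre-negative SC came next for Pink1, at 43.4 ± 61.4 FPKM. For Aplp1 the first 3 places were the Cre-positive SC of E17.5, P0.5 and the adult, and the last was the Cre-positive SC of P7.5. App was headed by the Cre-negative SC of P0.5, Aplp2 by retina at P7.5, and Sod1 by retina at E17.5, each overlapping the next group.

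The run-off libraries ask whether the mRNAs were on translating ribosomes, which are lost from the mRNA during run-off. Library input was set by the amount of cDNA, so reads were compared without scaling, and a gene's share left was read against the library totals. The adult Cre-positive SC held 3262914 reads on genes without run-off and 349395 with it (10.7%), and retina 4686284 and 315009 (6.72%). Each number below is 1 library, so no test of the treatment was possible, and the 95% intervals (exact Poisson for reads, exact binomial for shares left) cover counting error only. The run-off set holds no Cre-negative SC, so the SC reads, called axonal below, include immunoprecipitation background that could not be separated. In the main series, the adult Cre-negative SC held Sod1 at 539 and 0 FPKM and Pink1 at 86.9 and 0 FPKM. The adult Cre-positive SC held them at 56.1 and 190 FPKM and at 42.9 and 49.1 FPKM. In axons, 7 of the 9 genes had a read, and 6 of these 7 had fewer reads with run-off, against 84.9% of 5871 genes. In retina 8 had a read and 8 of 8 had fewer, against 92.1% of 9464 genes. Scaled to the reads on genes of each library (CPM), the counts were 5 of 7 in axons, against 72.3% of all genes, and 6 of 8 in retina, against 71.9%.

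Pink1 was the most frequent of the 9 mRNAs in the axonal library without run-off, at 590 reads (interval 543 to 640), and 41 reads (29.4 to 55.6) were left, or 6.95% (4.93 to 9.54). In retina it went from 429 to 16 reads, or 3.73% (2.11 to 6.13). Most genes kept less: among genes with at least 10 reads without run-off the median share left was 0% in both sources, and Pink1 lay at percentile 77.2 in axons and 64.3 in retina. Scaled to CPM, 64.9% of its axonal level was left, and 38.7% after median-ratio scaling. Aplp1 went from 42 reads to 0 in axons (0 to 9.18% left) and from 180 to 32 in retina, or 17.8% (11.8 to 26.0). App went from 35 to 0 in axons (0 to 11.1% left) and from 76 to 0 in retina (0 to 4.97%). In axons 3 of the 7 genes, App, Aplp1 and Park7 with its single read, kept no read, against 52.9% of all genes, and in retina 3 of 8, App, Prnp and Sncb, against 60.5%. A count of 0 allows up to 3 reads, which is 8.59 CPM in the axonal run-off library and 9.52 CPM in the retinal one.

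Sod1 was the exception among the members. In axons it had 390 reads (352 to 431) without run-off and 517 (473 to 564) with it, which is 133% (116 to 152), and among the 4010 genes with at least 10 reads without run-off this share lay at the 97.5th percentile. In retina it fell from 579 to 37 reads, or 6.39% (4.45 to 8.91), close to the library total.

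The remaining members had few axonal reads. Htt had 42 in axons, of which 3 were left (7.14%, 1.42 to 22.4, percentile 77.4), and 0 in both retina libraries. Its 42 reads stand beside the 0 FPKM listed in both adult axonal libraries of the main series. Divided by transcript length they amount to 3.18 reads per kb, against 17.9 for Aplp1, 345 for Pink1 and 608 for Sod1. Aplp1 had 42 reads as well. Since priming favours 3' ends, reads need not cover a whole transcript, and this order depends on the length used. Prnp had 0 reads in both axonal libraries and went from 154 to 0 in retina (0 to 2.42% left). Park7 had 1 axonal read and Sncb 4, and Aplp2 had 0. In retina Park7 went from 337 to 13 reads (3.86%, 2.03 to 6.69) and Aplp2 from 244 to 19 (7.79%, 4.61 to 12.4).

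**Figure D4:**
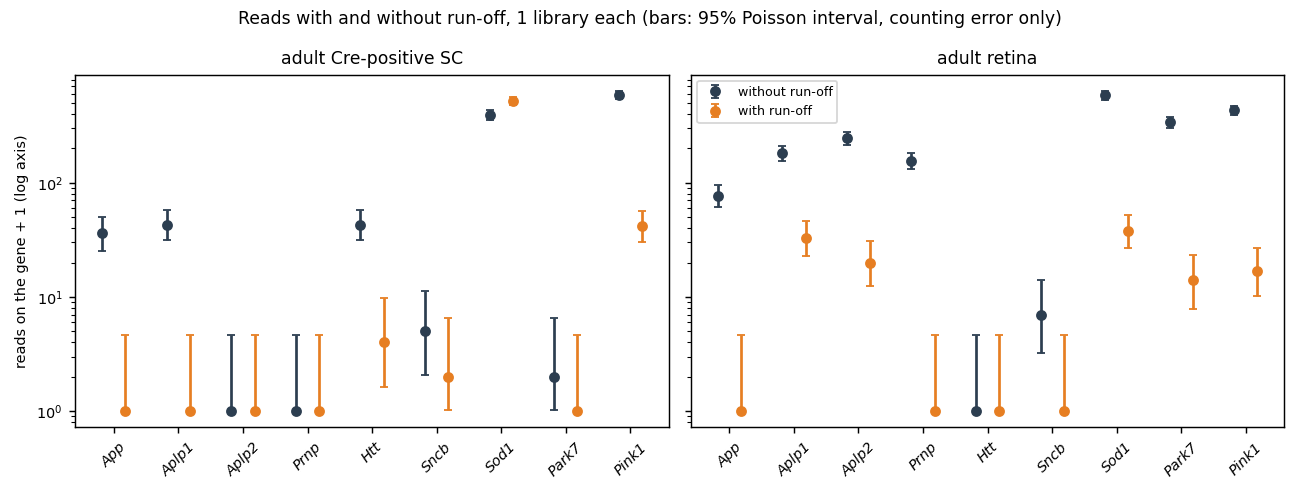
Reads on each gene plus 1, on a log axis, in the adult Cre-positive SC (left) and adult retina (right) without run-off (dark) and with run-off (orange); each point is 1 library and bars are 95% Poisson intervals for counting error. Reads with run-off lie below those without for the members with 10 or more reads except Sod1 in axons, at 390 and 517.

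Genes that work with these 9 were examined as 6 lists, of 110 entries in all, of which 109 were measured and 73 tested in SC. At P0.5, 19 of the 73 were higher with Cre and 1 was lower, against the 28.1% and 4.35% over all genes given above; at E17.5 1 was higher and 1 lower, and limma called 0 in the adult or at P7.5. In the list of amyloid precursor processing, 6 of 16 tested genes rose with Cre at P0.5 and 0 fell (median difference 2.36). They included Itm2b, a membrane protein that binds App, at 13.4 and 16.8 FPKM with Cre and 0.0927 and 0 FPKM without (3.94, SE 0.53, adjusted p = 0.000168), the gamma-secretase subunits Ncstn, at 11.8 and 2.84 FPKM with Cre and 0 in both without, and Aph1a, at 6.48 and 1.05 FPKM against 0 and 0, and the sorting receptor Sorl1, at 10.8 and 2.82 FPKM against 0 and 0.

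In the list of Parkinson's disease and mitochondrial quality control, 4 of 16 rose with Cre at P0.5 and 0 fell (median difference 0.57). The lysosomal ATPase Atp13a2 was at 34.4 and 32.8 FPKM against 0 and 0.0206 (5.10, SE 0.92, adjusted p = 0.00138), and the mitochondrial import receptor Tomm20, on the surface where Pink1 acts, was at 9.10 and 4.90 FPKM against 0 and 0. At E17.5 the import channel Tomm40 was lower with Cre, at 0 and 0.0557 FPKM against 8.34 and 16.6 FPKM (−3.64, SE 0.42, adjusted p = 0.00151).

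Among the genes of ALS and frontotemporal dementia, 5 of 14 rose with Cre at P0.5 and 1 fell (median difference 2.19). Those that rose included the dynactin subunit Dctn1, at 28.5 and 14.8 FPKM against 0 and 0 (4.43, SE 0.80, adjusted p = 0.00138), and progranulin, Grn, at 117 and 36.2 FPKM against 0.0686 and 0. The gene that fell was the tubulin Tuba4a (−4.56, SE 1.53, adjusted p = 0.0429), which is given here because it was the single call in that direction. Of 17 tested antioxidant genes 3 rose with Cre and 0 fell (median difference 2.47), which were Nfe2l2, encoding the transcription factor Nrf2, at 28.3 and 5.87 FPKM against 0 and 0, glutathione reductase, Gsr, at 4.56 and 4.55 FPKM against 0 and 0, and the peroxiredoxin Prdx5, at 145 and 93.0 FPKM against 0 and 0. Of 7 partners of huntingtin and other polyglutamine genes 1 rose, the huntingtin-associated F8a, at 26.3 and 18.7 FPKM against 0.0639 and 0 (4.49, SE 0.80, adjusted p = 0.00130; median difference of the list 0.17). Of 3 tested relatives and partners of prion protein 0 were called at P0.5, and the co-chaperone Stip1 was higher with Cre at E17.5, at 26.0 and 2.83 FPKM against 0 and 0 (3.34, SE 0.69, adjusted p = 0.0410).

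The genes whose log2(FPKM + 1) followed each member most closely over the 24 libraries were sought among 7193 genes and are given as a description, since all values of a library share its depth and detection. Htt was followed by Rasl12 (Pearson r = 0.997), which was likewise highest in the 2 Cre-positive SC libraries of P0.5. Prnp was followed by Pmm1 (r = 0.968) and Ganab (r = 0.951), and Pink1 by Ppp1r9b (r = 0.834) and Eif5a (r = 0.826). Aplp1 was followed by Cyb5b (r = 0.778) and Eif5a (r = 0.764), App by Atp6v1e1 (r = 0.929) and Taf1 (r = 0.917), and Aplp2 by Tshz1 (r = 0.716) and Elovl4 (r = 0.687). Sncb was followed by Tmem183a (r = 0.913) and Phf20l1 (r = 0.902), Sod1 by Cox7a2 (r = 0.819) and Deb1 (r = 0.805), and Park7 by B2m (r = 0.845) and Mepce (r = 0.840). Among the members themselves, the closest pairs were Prnp with Htt (r = 0.737), Aplp2 with Sncb (r = 0.706), and Aplp1 with Pink1 (r = 0.683). App was unlike its paralogs, with r = 0.260 to Aplp1 and −0.04 to Aplp2.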

How the data were processed

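The authors sequenced ribosome-bound mRNA after reverse transcription and PCR amplification, aligned it to mm10 with TopHat2 2.0.12, and estimated the deposited FPKM of the 24 libraries with Cufflinks 2.2.1. The run-off files, 4 in number, hold unnormalized read counts per gene that the authors made with HTSeq 0.6.1p1. Amplification and oligo-dT priming favour 3' ends and drop rare mRNAs, which bears on values of 0.

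Groups and replicate numbers came from the sample titles and stages. Differences were tested with limma 3.58.1 (trend and robust moderation, statmod 1.5.0, R 4.3.3) on log2(FPKM + 1), two-sided, with Benjamini-Hochberg adjustment within each contrast and a threshold of 0.05. Genes entered at 1 FPKM or more in at least 2 libraries of a fit. The 16 SC libraries, the 8 retina libraries, and the 16 libraries of Cre-positive SC and retina were fitted separately. A difference on this scale understates the change of low genes and, against a group at 0, depends on the pseudocount of 1. The paper calls the replicates of the Cre-positive and Cre-negative SC biological, but nothing in the labels says that replicates came from separate litters. P-values therefore measure the spread between these pooled samples, part of which may be technical. FPKM times transcript length did not fall reliably on whole fragments (35.7% to 82.1% of values within 0.15), so no counts were recovered. In 4 genes, none of them a member, an entry was missing and they were left out. Identifiers and coordinates are those of GENCODE for GRCm38. The procedure was tested on simulated data.

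The 9 genes, the 6 related lists and the marker lists were chosen with earlier results of these data known. Up to 4 genes of each list were named, those with the smallest p among the calls of a single-stage Cre comparison, and the 2 most alike genes were named for each member. A few genes that this rule selects are not reported here. Alternatives were a pseudocount of 0.1, no filter, median-ratio scaling, a replicate block, a fit to only the libraries compared, and leaving out each replicate, and for run-off CPM, median-ratio scaling and genes with at least 10 reads. Python 3.11.15, numpy 2.4.6, pandas 2.3.3 and scipy 1.17.1 were used.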

Additional observations from a re-analysis of the deposited data

Results flagged for a closer look

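The Cre difference of Htt was set apart because it differed between stages by a test of the difference itself. It was 2.01 larger at P0.5 than at E17.5 and changed by −2.14 from P0.5 to P7.5 on the log2(FPKM + 1) scale (limma adjusted p = 0.0170 and 0.0152). Both differences rest on 2 libraries, at 6.10 and 1.72 FPKM, which are also the only SC libraries that let Htt pass the entry filter. Groups listed at 0 in both libraries add no spread to the shared fit. In a fit to only the libraries compared, the limma adjusted p of the 2 differences was 0.126 and 0.0598. With 2 libraries a group, single outlying libraries could not be tested.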

How the results depend on the processing

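The counts of members called kept within 1.5 times of the reported ones in most alternatives. Most of these counts were 0 in the reported fit and stayed at 0, so this says little about the calls themselves. Nearly all counts that moved were above 0 in the reported fit. With the replicate number as a block, 4 members were higher with Cre at P0.5, adding Aplp1 (adjusted p = 0.0485) and Pink1 (0.0290), 0 over the mean of the stages, where Prnp was lost (0.0738), and 3 had a smaller Cre difference at P7.5 than at P0.5, adding Prnp (0.0368) and Aplp1 (0.0332). Of all 5983 genes, the block called 1777 higher with Cre at P0.5, 389 over the mean of the stages, and 1128 with a smaller Cre difference at P7.5. The block also added the fall of Pink1 from P0.5 to P7.5 in the Cre-positive SC (0.0278) and lost Prnp between axon and retina at P0.5 (0.0732). Same-numbered Cre-positive and Cre-negative SC libraries deviated together at E17.5, P0.5 and P7.5 (r = 0.417, 0.426 and 0.324) but hardly in the adult (0.0595). The labels do not say that the numbers mark litters, so the main fit does not pair them. The paper's cross yielded both Cre groups within a litter, and the adult SC libraries had 1162 to 3841 genes above 0. The low adult r is therefore weak ground for treating the earlier stages as unpaired. With a pseudocount of 0.1, 1 member rose from E17.5 to P0.5, 2 had a smaller Cre difference at P7.5 and 1 was higher in axon than retina at P0.5. The same counts over all genes were 1413 and 1039 of 5983, and 1539 of 6321. Without the filter, 0 were called higher over the mean of the stages and 1 from E17.5 to P0.5, against 508 and 1516 of 10204 genes. In fits to only the libraries compared, 0 rose from E17.5 to P0.5 and 0 had a larger Cre difference at P0.5 than at E17.5. In these fits 3 had a smaller Cre difference at P7.5, and 5 were higher and 1 lower in axon than retina at P0.5. Over all genes, 1019 of 5548 rose, 921 of 5854 had a larger and 1822 of 5715 a smaller Cre difference. Between axon and retina, 2840 of 6048 genes were higher and 1059 lower. For the mean of the stages that fit is the reported one. The cause was not tested.

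Leaving out 1 library gave 1 to 2 members higher with Cre at P0.5, 0 to 2 over the mean of the stages, 1 to 2 rising and 0 to 1 falling from E17.5 to P0.5, 1 to 3 with a larger Cre difference at P0.5, 0 to 1 falling from P7.5 to adult in retina, 0 to 1 higher in axon than retina at E17.5 and 1 to 2 at P0.5. The adult retina fall was Sod1 without replicate 2 (−7.73, adjusted p = 0.000161). The adult Cre difference of Pink1 ranged from −0.91 to 5.55. Scaling run-off libraries to CPM turned the retinal shares of Aplp1 and Aplp2 to 264% and 116%, above 100%. Median-ratio scaling moved the median of all genes by up to 0.38, in retina from E17.5 to P0.5, and changed no count of members by over 1.5 times. Unknown depth limits every value at or near 0.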
